A study of Homo sapiens with 9 samples.

Results

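Mitochondrial ribosomal protein genes were followed in HT-29 cells, an established human colon cancer line grown as monolayers, exposed to 5-Aza-deoxycytidine. This drug, written 5-Aza here, is a nucleoside that enters DNA in place of deoxycytidine and traps DNA methyltransferases. The set was chosen with earlier results of these data known. Its genes were taken by name, as those whose symbols are MRPL or MRPS and a number, with pseudogenes left out. This gave 75 of the 19775 genes named by a probe set of 1 gene on the array. Groups of 3 cultures were compared, the DMSO vehicle alone (0 µM 5-Aza), 5 µM 5-Aza and 10 µM 5-Aza, each kept in its condition for 5 days, and 1 Affymetrix U133 Plus 2.0 array was run for each of the 9 cultures. All 9 came from the same line, so the spread below is that between cultures of a single line. Values are log2 signals, on which a difference of 1 is a doubling. A gene was tested when its probe set reached the median of every array of at least 1 group, which left 11756 genes, and a change was called at an adjusted p of at most 0.05.

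The mitochondrial ribosome translates the few messages of mitochondrial DNA, which encode core subunits of the respiratory chain and ATP synthase. Its RNAs come from the mitochondrial genome, but all of its proteins are encoded in the nucleus, made in the cytosol and imported. Proteins of the large subunit, which forms peptide bonds, carry MRPL symbols, and those of the small subunit, which reads the message, carry MRPS symbols. MRPS18A and MRPS30 are exceptions that sit in the large subunit. Some members descend from bacterial ribosomal proteins and others are found only in mitochondria. By these roles the 75 genes comprised 50 of the large subunit and 25 of the small one.

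All 75 genes were tested and stood at or above the array median on all 9 arrays. Their mean log2 signals ran from 7.27 to 12.24, with a median of 9.80 against 8.67 over all tested genes. The part of this higher signal in the comparisons with all tested genes was not tested. Among intestinal epithelium markers, 10 of 12 were tested, with 5 called lower and 2 higher at 5 µM and 4 lower and 2 higher at 10 µM (median changes -0.34 and -0.41). KRT8, an epithelial keratin, fell by 0.95 ± 0.14 and 1.05 ± 0.14, and CEACAM5, an adhesion molecule, was higher by 1.67 ± 0.13 and 0.89 ± 0.13. CDX1 and CDX2 were below the array median on all 9 arrays. Of 13 markers of fibroblasts, blood and endothelium, 8 were not tested, and PTPRC, the leukocyte marker, was below the array median on every array. COL1A1, a fibrillar collagen, was called higher at both doses, by 2.68 ± 0.26 (SE) at 5 µM and 1.98 ± 0.26 at 10 µM. LUM, a matrix proteoglycan, was also called higher, by 1.57 ± 0.16 and 0.68 ± 0.16. The part of these markers in the values below was not tested. The expression of DNMT1, the maintenance DNA methyltransferase that the drug traps, was 0.67 ± 0.10 higher at 10 µM than at 0 µM (limma adjusted p = 0.0020).

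Several members start close to a neighbour that runs the other way, so the bases between both starts lie upstream of a pair of genes. Whether they act on both genes was not tested. The 3 such stretches printed first belong to MRPL30, MRPS2 and MRPL49, whose neighbours are described further on, and the other 3 are the 100 bases before the starts of MRPL58, MRPS10 and MRPS9, which are among the called genes. All are RefSeq sequence of the GRCh38.p14 build, read on the strand of the member from 5′ to 3′ and ending at the base before its start. Capitals mark letters of the ETS, NRF1 and E-box motifs spelled out below.
MRPL30, from MITD1, chr2:99181059-99181183, plus strand: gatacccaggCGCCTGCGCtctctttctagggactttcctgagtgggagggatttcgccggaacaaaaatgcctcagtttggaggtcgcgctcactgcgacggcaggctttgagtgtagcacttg
MRPS2, from PIERCE1, chr9:135499870-135499964, plus strand: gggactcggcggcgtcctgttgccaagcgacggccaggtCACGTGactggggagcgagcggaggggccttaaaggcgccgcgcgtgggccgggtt
MRPL49, from FAU, chr11:65122135-65122182, plus strand: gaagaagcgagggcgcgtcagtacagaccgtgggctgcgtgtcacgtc
MRPL58, chr17:75012570-75012669, plus strand: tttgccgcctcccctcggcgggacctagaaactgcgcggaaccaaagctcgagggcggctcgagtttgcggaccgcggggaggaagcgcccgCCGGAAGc
MRPS10, chr6:42217862-42217961, minus strand: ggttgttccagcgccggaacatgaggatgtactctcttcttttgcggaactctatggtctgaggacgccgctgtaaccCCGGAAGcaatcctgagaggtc
MRPS9, chr2:105037969-105038068, plus strand: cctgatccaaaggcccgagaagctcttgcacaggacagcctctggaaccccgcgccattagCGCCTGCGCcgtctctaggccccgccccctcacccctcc

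In the 5 µM vs. 0 µM 5-Aza groups, 25 of the 75 genes (33.3%) were called lower and none was called higher. Over all tested genes 13.3% were called lower and 20.2% higher in the same comparison. The change was negative for 70 of the 75 genes, and its median was -0.30 against 0.04 over all tested genes. The 3 arrays at 5 µM lay wholly below the 3 vehicle arrays for 44 members, where 25.4% of all tested genes did so. Most changes were small. Read from the brightest probe set of each gene, only MRPL15 passed both the adjusted p and a 2-fold limit. That rule was met by 1.32% of all tested genes on the lower side.

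In the 10 µM vs. 0 µM 5-Aza groups, 28 genes (37.3%) were called lower and MRPL9 alone was called higher, with backgrounds of 13.3% lower and 19.8% higher. The median change was -0.32 against 0.05 over all tested genes, and 68 of the 75 values were negative. The arrays lay wholly below the vehicle arrays for 33 members, against 19.0% of all tested genes. Read in the same way, MRPS6 was the 1 member lower by more than 2-fold, where the share of all tested genes was 1.50%. The same vehicle arrays served both comparisons, so the doses are not independent of each other. In the lists of called genes 17 were shared, 68.0% of the 25 at 5 µM and 60.7% of the 28 at 10 µM. These 17 were MRPL1, MRPL10, MRPL15, MRPL19, MRPL30, MRPL35, MRPL37, MRPL39, MRPL46, MRPL49, MRPL54, MRPL58, MRPS10, MRPS12, MRPS14, MRPS33 and MRPS35.

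**Figure D1:**
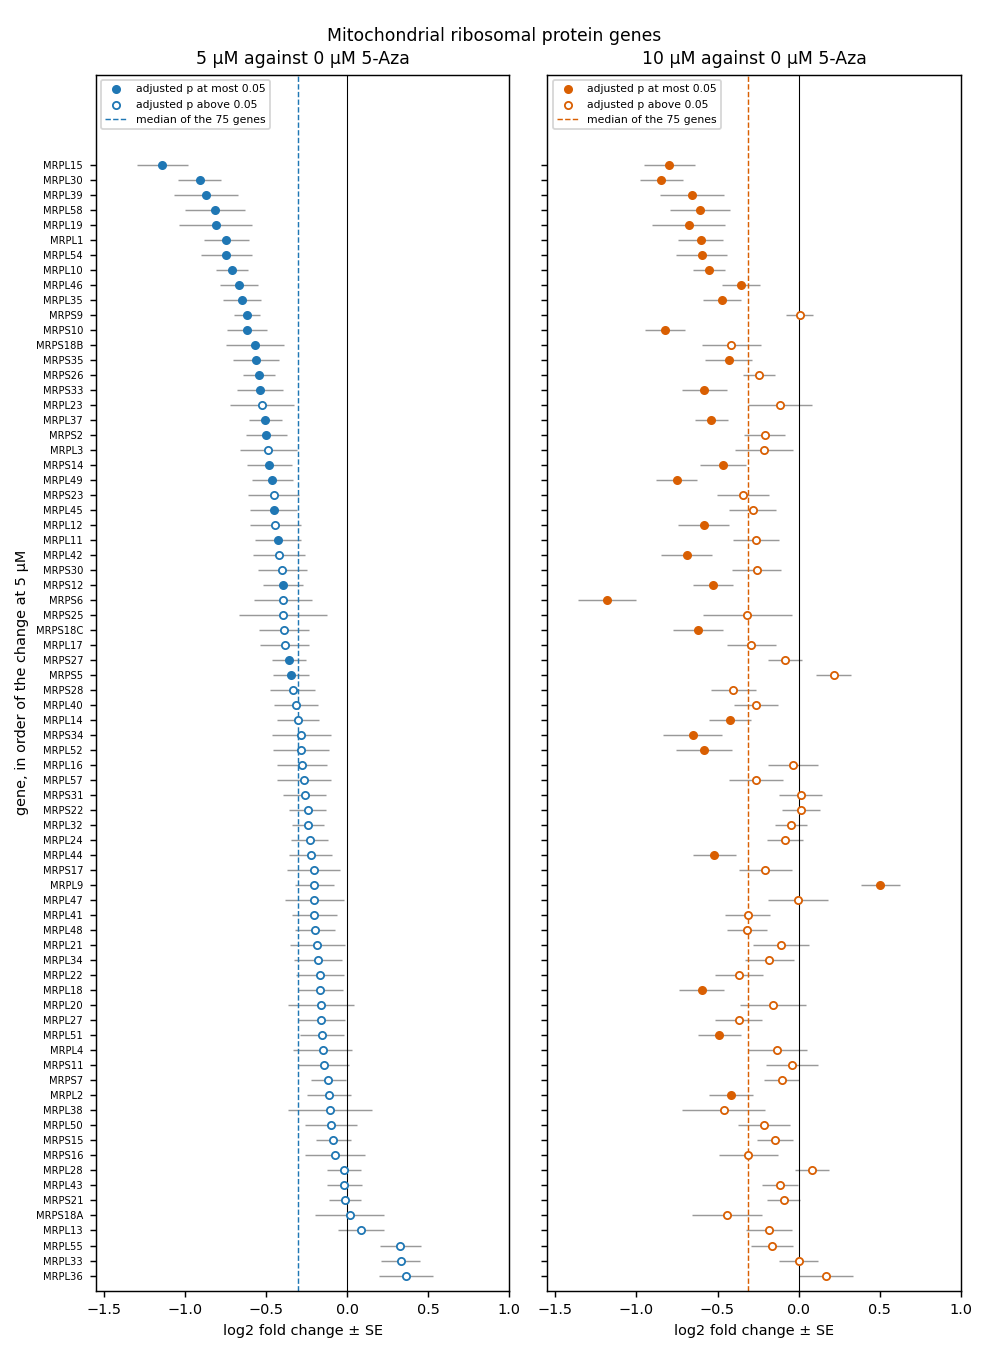
Log2 fold change ± SE of each of the 75 genes at 5 µM (left) and 10 µM (right) against 0 µM 5-Aza, in the order of the change at 5 µM, with filled points for an adjusted p of at most 0.05 and dashed lines at the medians of -0.30 and -0.32. Most points lie left of 0 at both doses, while MRPL9 is called on the right at 10 µM.

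The lower level was seen on every treated array. Each gene was set against its own mean over the vehicle arrays, and the median over the 75 genes was 0.01, 0.09 and -0.09 on the vehicle arrays themselves. It was -0.39, -0.28 and -0.27 on the 5 µM arrays and -0.51, -0.13 and -0.36 on the 10 µM arrays. The medians of all tested genes on the same 9 arrays stayed between -0.003 and 0.08. The 10 µM replicate 2 array was thus the treated array nearest to the vehicle, with 47 members below their vehicle mean, against 66 to 71 on the other treated arrays. The summed linear signal of the members was 102045 to 115352 at 0 µM, 82345 to 91722 at 5 µM and 75395 to 99890 at 10 µM, so neither dose overlapped the vehicle.

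**Figure D2:**
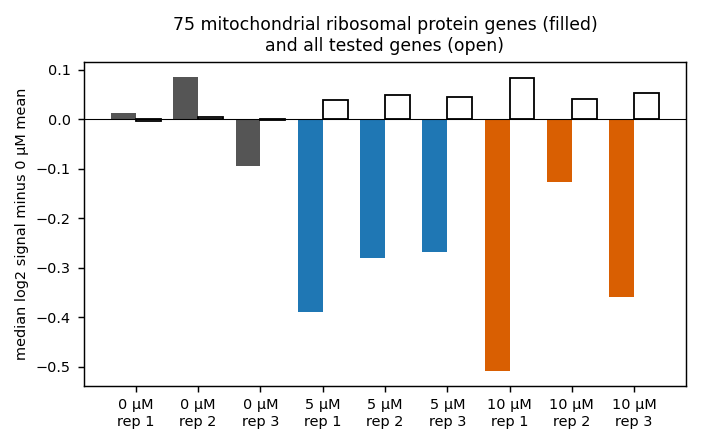
Median over the 75 genes (filled bars) and over all tested genes (open bars) of the log2 signal minus the mean of the 3 vehicle arrays, for each of the 9 arrays. The filled bars are below 0 on all 6 treated arrays, from -0.13 to -0.51, and the open bars stay within 0.1 of 0.

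Signs of RNA quality moved with the dose. For β-actin, the control probe set at the 3′ end exceeded that at the 5′ end by a log2 signal of 1.91 to 2.29 at 0 µM, 2.49 to 2.69 at 5 µM and 2.84 to 3.17 at 10 µM, with no overlap between groups. For GAPDH the excess was 0.13 to 0.25, 0.31 to 0.34 and 0.47 to 0.70. With the β-actin value as a covariate none of the 75 genes was called in any comparison, while their median changes were -0.32 at 5 µM and -0.29 at 10 µM. In the same fit 1.17% of all tested genes were called lower and 5.05% higher at 5 µM, and no gene of the array was called at 10 µM by limma, where 997 had an unadjusted p under 0.05. The covariate follows the dose, so the dose and the 3′ excess cannot be told apart in this design. The 18S ribosomal RNA control at the 5′ end read 13.45 and 13.60 on the 10 µM replicate 2 and 3 arrays and 11.77 to 12.56 on the other 7. With both left out, 35 members were lower at 10 µM and their median was -0.51, against 1695 of 12132 genes lower and a median of 0.11 over all genes in that fit, with the spread of the lone 10 µM array taken from the other groups.

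Counts of calls also rested on single arrays. The count at 5 µM was 13 when either 0 µM replicate 2 or 5 µM replicate 1 was left out, and 16 when 5 µM replicate 3 was. At 10 µM, leaving out vehicle replicate 1 gave 14 and vehicle replicate 2 gave 10, while leaving out 10 µM replicate 1, 2 or 3 gave 18, 40 or 12. The share of all tested genes called lower moved too, from 8.21% to 16.1% at 5 µM and from 7.35% to 17.7% at 10 µM.

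**Figure D3:**
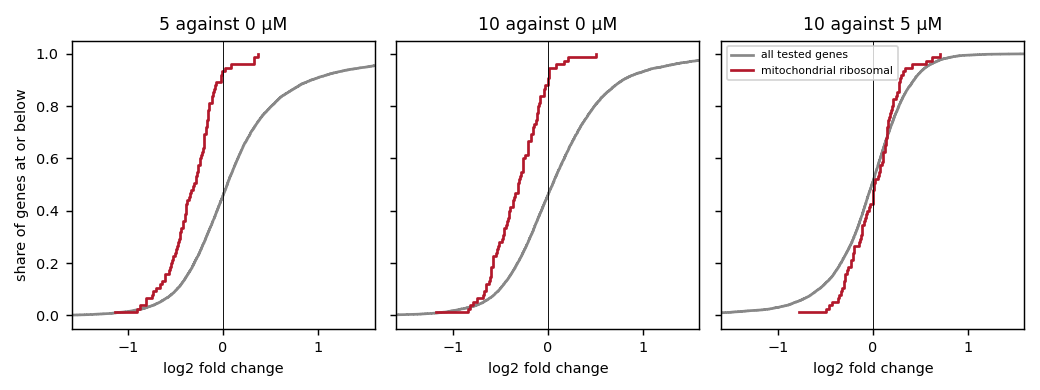
Cumulative share of genes at or below each log2 fold change, for the 75 genes (red) and all 11756 tested genes (grey), in each of the 3 comparisons. The red curve lies left of the grey one in both comparisons with the vehicle (medians -0.30 and -0.32 against 0.04 and 0.05), and both curves centre near 0 between the doses (0.01 against -0.01).

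Among large-subunit genes 14 of 50 were called lower at 5 µM (median change -0.25) and 20 of 50 at 10 µM (-0.32). MRPL15, the homolog of a bacterial protein that binds the large ribosomal RNA, had log2 signals of 10.68, 10.75 and 10.49 at 0 µM. It read 9.38, 9.67 and 9.44 at 5 µM and 9.59, 10.15 and 9.79 at 10 µM. All treated arrays were below all vehicle arrays. The change was -1.14 ± 0.16 (SE, 3 arrays a group), or 2.20-fold, at 5 µM (limma adjusted p = 0.00089) and -0.80 ± 0.16 at 10 µM (limma adjusted p = 0.0062).

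MRPL30, another homolog of a bacterial large-subunit protein, had signals of 10.42, 10.44 and 10.21 at 0 µM, 9.38, 9.51 and 9.44 at 5 µM and 9.37, 9.79 and 9.36 at 10 µM. Here too the treated arrays lay apart from the vehicle arrays, by -0.91 ± 0.13 at 5 µM (limma adjusted p = 0.0013) and -0.85 ± 0.13 at 10 µM (0.0025). MRPL19, which sits at the face where the subunits meet, read 9.42, 9.71 and 9.47 at 0 µM, 8.63, 8.86 and 8.69 at 5 µM and 8.31, 9.30 and 8.96 at 10 µM. Its changes were -0.81 ± 0.23 (limma adjusted p = 0.024) and -0.68 ± 0.23 (0.048). The 10 µM replicate 2 array came close to the lowest vehicle array without reaching it. In a fit of single probe sets, no probe set of MRPL19 was called at 10 µM (limma adjusted p = 0.058 for the brightest). Its other tested ones changed by -0.13 ± 0.13 and -0.35 ± 0.23 at 10 µM. At 5 µM they changed by -0.44 ± 0.13, which was called, and -0.57 ± 0.23, which was not.

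MRPL39 and MRPL49 have no bacterial counterpart. MRPL39 read 9.51, 9.59 and 9.08 at 0 µM, 8.60, 8.47 and 8.49 at 5 µM and 8.47, 9.16 and 8.58 at 10 µM. The 10 µM replicate 2 array lay above the lowest vehicle array, so those groups overlapped, and the changes were -0.87 ± 0.20 at 5 µM (limma adjusted p = 0.0099) and -0.66 ± 0.20 at 10 µM (0.033). MRPL49 read 11.62, 11.76 and 11.67 at 0 µM, 11.09, 11.27 and 11.30 at 5 µM and 11.09, 11.02 and 10.68 at 10 µM. It was lower without overlap at both doses, by -0.46 ± 0.13 (limma adjusted p = 0.022) and -0.75 ± 0.13 (0.0031).

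MRPL58 is a peptidyl-tRNA hydrolase built into the large subunit, of the family that releases peptides from stalled ribosomes. Its signals were 10.33, 10.37 and 10.09 at 0 µM, 9.20, 9.74 and 9.41 at 5 µM and 9.32, 9.79 and 9.87 at 10 µM. The arrays of both doses were below the vehicle, by -0.81 ± 0.19 (limma adjusted p = 0.010) and -0.61 ± 0.19 (0.036). MRPL12, of the flexible stalk that recruits translation factors, read 9.55, 9.58 and 9.24 at 0 µM, 8.86, 9.18 and 9.01 at 5 µM and 8.64, 9.14 and 8.83 at 10 µM. Both doses lay below the vehicle, and the change was called at 10 µM (-0.59 ± 0.16, limma adjusted p = 0.021) but not at 5 µM (-0.44 ± 0.16, 0.057).

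The large-subunit members with small-subunit names were not called. MRPS30 changed by -0.40 ± 0.15 at 5 µM (limma adjusted p = 0.070) and -0.26 ± 0.15 at 10 µM (0.21). MRPS18A changed by 0.02 ± 0.21 and -0.44 ± 0.21 (limma adjusted p = 0.96 and 0.14). Among its paralogs in the small subunit, MRPS18B was called lower at 5 µM (-0.57 ± 0.18, limma adjusted p = 0.040) and MRPS18C at 10 µM (-0.62 ± 0.15, 0.016). The changes of MRPS18B at 10 µM (-0.42 ± 0.18) and of MRPS18C at 5 µM (-0.39 ± 0.15) had the same sign and were not called, and neither gene was called between the doses. A second tested probe set of MRPS18B, in a fit of single probe sets, was called lower at both doses (-0.81 ± 0.21, limma adjusted p = 0.024, and -1.22 ± 0.21, 0.0050). With the mean of its probe sets the change of MRPS18C at 10 µM was 0.17, the opposite sign. That mean takes in probe sets too low in signal to be tested.

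Among small-subunit genes 11 of 25 were called lower at 5 µM (median change -0.39) and 8 of 25 at 10 µM (-0.31). The difference from the large subunit was not tested. By origin, with MRPL55 put in no class, the called genes at 5 µM were 7 of 29 large-subunit homologs of bacterial proteins, 7 of 20 large-subunit proteins particular to mitochondria, 7 of 16 small-subunit homologs and 4 of 9 small-subunit proteins particular to mitochondria. At 10 µM the counts were 10 of 29, 10 of 20, 5 of 16 and 3 of 9, and the 4 medians lay between -0.21 and -0.45.

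MRPS10, whose bacterial homolog lies in the head of the small subunit, read 11.71, 11.76 and 11.48 at 0 µM, 11.00, 11.03 and 11.07 at 5 µM and 10.82, 11.03 and 10.64 at 10 µM. Its treated arrays were all below the vehicle arrays, by -0.62 ± 0.12 at 5 µM (limma adjusted p = 0.0059) and -0.82 ± 0.12 at 10 µM (0.0020). In a fit of single probe sets, the other tested ones of MRPS10 were not called at 5 µM (-0.29 ± 0.13 and -0.26 ± 0.16). Both were called lower at 10 µM (-0.70 ± 0.13 and -0.67 ± 0.16). MRPS12, at the decoding centre, was picked for this role after its values were seen. It changed by -0.40 ± 0.12 and -0.53 ± 0.12, both called (limma adjusted p = 0.036 and 0.013). In a fit of single probe sets the same probe set was called at 10 µM but not at 5 µM (limma adjusted p = 0.020 and 0.059). The other tested probe sets of MRPS12 were not called. They changed by -0.14 ± 0.14 and -0.08 ± 0.25 at 5 µM and by 0.07 ± 0.14 and -0.47 ± 0.25 at 10 µM.

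MRPS6, a protein of the small subunit's platform, read 12.49, 12.78 and 12.94 at 0 µM, 12.20, 12.11 and 12.71 at 5 µM and 11.41, 11.64 and 11.62 at 10 µM. At 5 µM the groups overlapped and the change of -0.40 ± 0.18 was not called (limma adjusted p = 0.12). At 10 µM all arrays were below those of the other groups, by -1.18 ± 0.18 or 2.27-fold against the vehicle (limma adjusted p = 0.0021) and by -0.79 ± 0.18 against 5 µM (0.022).

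The direct comparison of the 10 µM vs. 5 µM 5-Aza groups called 3 members higher (MRPL9, MRPS9 and MRPS5) and 2 lower (MRPS6 and MRPL55). Over all tested genes 6.93% were called higher and 8.92% lower, and 2.08% were lower by more than 2-fold, which no member was. The median of the 75 changes was 0.01 against -0.01 over all tested genes. Arrays of the doses did not overlap for 14 members, 8 of them higher and 6 lower at 10 µM, where 17.3% of all tested genes were higher and 18.6% lower without overlap.

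MRPL9, whose bacterial homolog reaches out from the base of the large subunit's stalk, read 10.34, 10.14 and 10.02 at 0 µM, 9.89, 9.91 and 10.10 at 5 µM and 10.55, 10.77 and 10.70 at 10 µM. The 10 µM arrays were above all others, by 0.50 ± 0.12 against 0 µM (limma adjusted p = 0.013) and 0.71 ± 0.12 against 5 µM (0.0080). MRPS9, from the head of the small subunit, read 8.80, 8.85 and 8.76 at 0 µM, 8.17, 8.20 and 8.20 at 5 µM and 8.74, 8.84 and 8.85 at 10 µM. It was lower at 5 µM alone, by -0.62 ± 0.08 against 0 µM (limma adjusted p = 0.00079), and higher by 0.62 ± 0.08 at 10 µM than at 5 µM (0.0041). Its 10 µM and 0 µM arrays overlapped, with a difference of 0.01 ± 0.08.

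MRPS5, a homolog of the bacterial protein at the entry of the message channel, read 10.07, 10.23 and 10.27 at 0 µM, 9.88, 9.89 and 9.78 at 5 µM and 10.42, 10.25 and 10.56 at 10 µM. It was called lower at 5 µM (-0.35 ± 0.11, limma adjusted p = 0.038) and higher at 10 µM than at 5 µM (0.56 ± 0.11, 0.013). The tested probe sets of MRPS5 disagreed against the vehicle, with changes at 5 µM from -0.39 to 0.21, so that direction depends on the probe set. Between the doses all were positive, from 0.28 to 0.56, and only the brightest was called. MRPL55, a protein of the large subunit, read 8.69, 8.88 and 8.66 at 0 µM, 8.98, 9.05 and 9.19 at 5 µM and 8.48, 8.82 and 8.44 at 10 µM. It was lower at 10 µM than at 5 µM by -0.49 ± 0.13 (limma adjusted p = 0.036). With the mean of its probe sets, which takes in ones too low in signal to be tested, that value was 0.38.

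**Figure D4:**
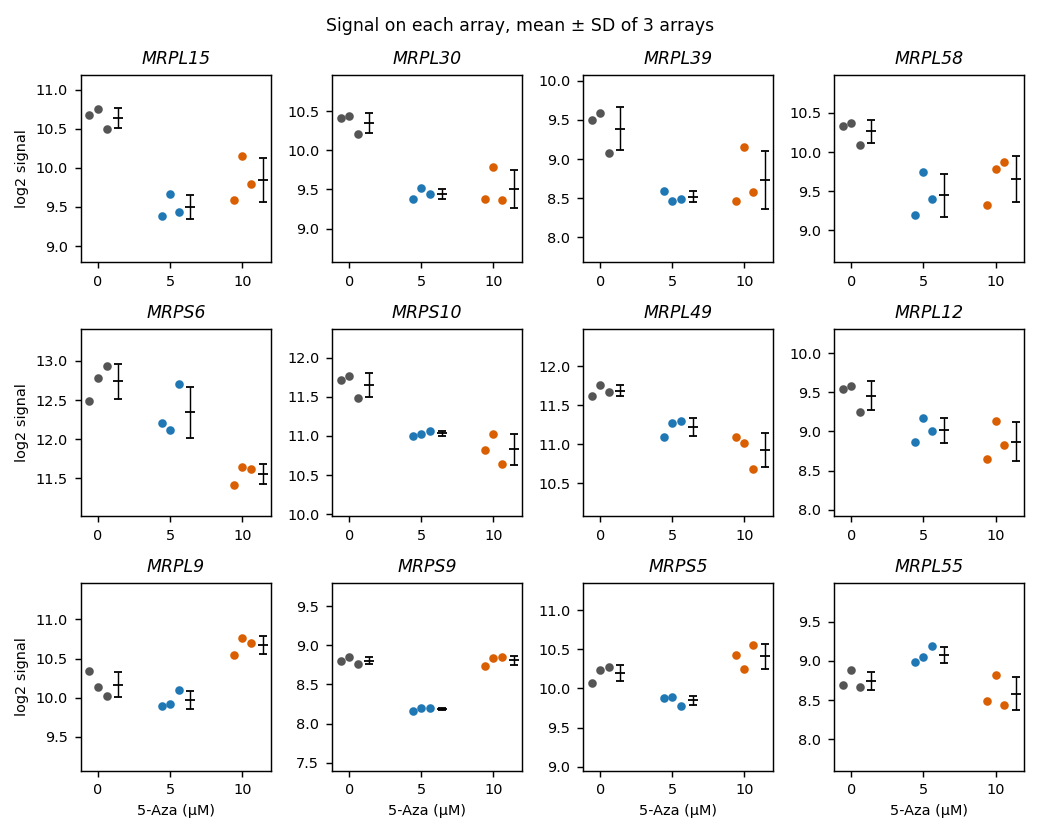
Log2 signal on each of the 9 arrays for 12 members, by dose of 5-Aza in µM, with the mean ± SD of 3 arrays beside each group (each vertical axis has its own range of values). MRPL15 to MRPL58 in the top row are lower at both doses, MRPS6 is lowest at 10 µM, and MRPL9, MRPS9 and MRPS5 are higher at 10 µM than at 5 µM.

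The members with a positive change at 5 µM, named after their values were seen, were MRPL36 (0.37 ± 0.17), MRPL33 (0.33 ± 0.12), MRPL55 (0.33 ± 0.13), MRPL13 (0.08) and MRPS18A (0.02), and none was called. MRPL33 read 11.13, 11.16 and 10.95 at 0 µM, 11.51, 11.31 and 11.40 at 5 µM and 10.88, 11.24 and 11.12 at 10 µM. For MRPL33, MRPL36 and MRPL55 the 5 µM arrays were all above the vehicle arrays. By their brightest probe sets, 38 members were called in some comparison and 37 in none. The uncalled ones were MRPL3, MRPL4, MRPL13, MRPL16, MRPL17, MRPL20, MRPL21, MRPL22, MRPL23, MRPL24, MRPL27, MRPL28, MRPL32, MRPL33, MRPL34, MRPL36, MRPL38, MRPL40, MRPL41, MRPL43, MRPL47, MRPL48, MRPL50, MRPL57, MRPS7, MRPS11, MRPS15, MRPS16, MRPS17, MRPS18A, MRPS21, MRPS22, MRPS23, MRPS25, MRPS28, MRPS30 and MRPS31.

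A gene was read from its brightest probe set, and 26 members had several tested ones. All probe sets of a gene had the same sign for 19 of the 26 at 5 µM and 15 at 10 µM. Of the 47 probe sets that did not stand for their gene, 39 were negative at 5 µM (6 called lower, 2 higher) and 34 at 10 µM (8 lower, 3 higher). Those higher at both doses were of MRPL4 (0.77 ± 0.21 and 0.71 ± 0.21) and MRPL43 (0.60 ± 0.17 and 0.76 ± 0.17), listed above as uncalled. The other one higher at 10 µM was of MRPS5 (0.72 ± 0.21). Among those lower at 10 µM was a probe set of MRPS15 (-0.56 ± 0.15), also listed as uncalled. For 45 members the gene was read from a probe set of the kind whose probes can match several transcripts, and their median change at 5 µM was -0.24, against -0.43 for the other 30.

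Other genes of the mitochondrial translation system were called in both directions. Of 4 ribosomal proteins with other symbols, none was called at 5 µM. At 10 µM CHCHD1, of the small subunit, was lower (-0.48 ± 0.12, limma adjusted p = 0.015) and PTCD3, a pentatricopeptide protein of the small subunit, was higher (0.42 ± 0.11, 0.018). Of 16 tested translation factors and regulators, 5 were lower at 5 µM and 3 at 10 µM, with none higher and a median of -0.23 at both doses. GUF1, the mitochondrial counterpart of a bacterial elongation factor, was lower at both (-0.70 ± 0.12, limma adjusted p = 0.0026, and -0.46 ± 0.12, 0.018). GFM1, an elongation factor, was called lower at 5 µM (-0.61 ± 0.15, limma adjusted p = 0.013). LRPPRC and MTIF2, a messenger RNA stability factor and an initiation factor, were higher at 10 µM than at 5 µM, by 0.37 ± 0.08 and 0.44 ± 0.11 (limma adjusted p = 0.021 and 0.031).

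Genes of mitochondrial ribosome assembly and ribosomal RNA modification gave 5 of 22 lower and none higher at 5 µM (median -0.23), but none lower and 3 higher at 10 µM (median 0.05). FASTKD2, an RNA-binding protein of large-subunit assembly, was called lower at 5 µM (-0.90 ± 0.13, limma adjusted p = 0.0012). MTERF3, which is needed for ribosome assembly, was lower at 5 µM (-0.82 ± 0.11, limma adjusted p = 0.00086) and 1.04 ± 0.11 higher at 10 µM than at 5 µM (0.0022). MTG2, a GTPase of large-subunit assembly, was higher at 10 µM (0.80 ± 0.14, limma adjusted p = 0.0035). Between the doses 5 of the 22 were higher at 10 µM and 1 lower, with a median of 0.24.

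Of 11 genes for transcription and replication of mitochondrial DNA, 3 were lower and 1 higher at 5 µM, and 3 were higher and none lower at 10 µM. TWNK, the mitochondrial helicase, was lower at 5 µM by -0.50 ± 0.11 (limma adjusted p = 0.0084) and 0.70 ± 0.11 higher at 10 µM than at 5 µM (0.0064). POLG, the mitochondrial DNA polymerase, was higher at 10 µM by 0.66 ± 0.12 (limma adjusted p = 0.0046). Of 9 tested nuclear regulators of mitochondrial genes, 3 were lower and none higher at 5 µM (median -0.11), and 3 were lower and 1 higher at 10 µM (median 0.02). MYC read 11.97, 12.14 and 11.71 at 0 µM, 10.71, 10.68 and 10.84 at 5 µM and 11.62, 11.61 and 11.43 at 10 µM. The change of this transcription factor of growth and ribosome genes was -1.19 ± 0.13 at 5 µM (limma adjusted p = 0.00023) and -0.39 ± 0.13 at 10 µM (0.045). ESRRA, a nuclear receptor that drives mitochondrial genes, was lower at both doses, by -0.41 ± 0.12 and -0.56 ± 0.12 (limma adjusted p = 0.030 and 0.0090). PPRC1, a coactivator of the PGC-1 family, was lower at 5 µM (-0.43 ± 0.13, limma adjusted p = 0.034) and higher at 10 µM (0.52 ± 0.13, 0.017). NRF1, GABPA and YY1, whose motifs are counted below, were not called in any comparison.

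The cytosolic ribosomal proteins, which translate nuclear messages, were called lower for 47 of 53 tested genes at 5 µM and 40 of 53 at 10 µM, where 1 was called higher. Their medians of -0.40 and -0.38 lay beside those of -0.30 and -0.32 for the mitochondrial set. Their median SE was near 0.10 against 0.14, so the counts of calls are not on an equal footing. The nuclear-encoded subunits of oxidative phosphorylation gave 7 of 66 lower and 2 higher at 5 µM (median -0.15) and 23 lower and 1 higher at 10 µM (median -0.31). Between the doses 6 of the 66 were lower and 1 higher (median -0.17), where the mitochondrial ribosomal proteins had a median of 0.01. The differences between the lists were not tested.

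**Figure D5:**
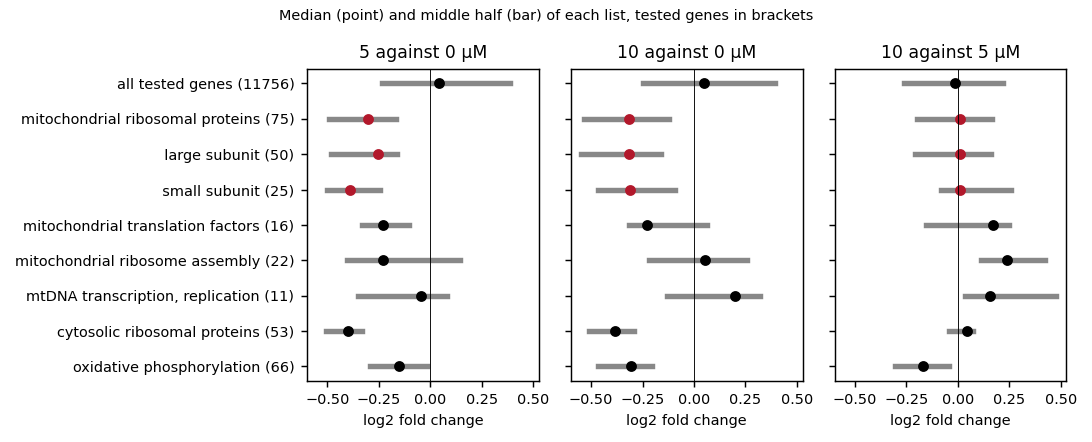
Median (point) and interquartile range (bar) of the log2 fold change in each list of genes, with the number of tested genes in brackets, for the 3 comparisons, and mitochondrial ribosomal proteins in red. The mitochondrial and cytosolic ribosomal proteins lie at -0.30 to -0.40 at both doses against 0 µM, while assembly genes sit at -0.23 at 5 µM and 0.05 at 10 µM.

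Promoter sequence could be set beside the expression values for 67 of the 75 genes, in windows from 250 bases before to 50 after each start. MRPL2, MRPL10, MRPL13, MRPL15, MRPL21, MRPL23, MRPL35 and MRPS28 had no matching entry. The letters CCGGAAG, a core that ETS factors such as GABPA recognise, stood on either strand in 29 of the 67 genes (43.3%), against 12.2% of all 27305 genes with a window and 22.6% of the 9613 tested ones. The YY1 letters AAGATGGCG were in 12 (17.9%), against 4.70% of tested genes. The NRF1 letters GCGCANGCG were in 14 (20.9%), against 17.0%. The E-box CACGTG, which MYC and related factors recognise, was in 9 (13.4%), against 12.8%. The TATA letters TATAAA were in 3 (4.48%), against 8.74%, and the GC box GGGCGG was in 40 (59.7%), against 76.2%. None of these motifs contains another as written.

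Members with ETS letters had 7 of 29 lower at 5 µM (median change -0.26), and those without had 15 of 38 (-0.37). At 10 µM the counts were 11 of 29 and 13 of 38, and neither difference was tested. In the printed stretches these letters begin 8 bases before the start of MRPL58 and 22 before that of MRPS10. NRF1 letters begin 115 bases before the start of MRPL30 and 39 before that of MRPS9. The E-box in MRPS2 lies 56 bases before its start. A match of letters is a description of the sequence and was not tested for binding.

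A gene on the opposite strand started within 1000 bases upstream for 25 of the 67 members (37.3%), against 29.8% of the tested genes with a window. In 16 cases that neighbour was tested and was no member itself. At 5 µM these 16 neighbours had a median change of 0.04, with 3 lower and 1 higher, while their paired members had a median of -0.34. The medians at 10 µM were 0.02 and -0.39, with 2 neighbours lower and 2 higher. The difference within pairs was not tested.

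The pairs whose sequence is printed above differed in how their genes moved, and were picked after their values were seen. MITD1 changed by 0.02 ± 0.10 and -0.10 ± 0.10 at the doses where MRPL30, which starts 126 bases away, changed by -0.91 and -0.85. PIERCE1 starts 96 bases from MRPS2 and was called higher at both doses, by 2.08 ± 0.11 and 1.23 ± 0.11. MRPS2 itself was called lower at 5 µM (-0.50 ± 0.13, limma adjusted p = 0.016) and not at 10 µM (-0.21 ± 0.13, 0.23). FAU, which encodes a cytosolic ribosomal protein fused to a ubiquitin-like one, starts 49 bases from MRPL49 and changed by -0.29 ± 0.10 (limma adjusted p = 0.052) and -0.34 ± 0.10 (0.029), the same sign as MRPL49.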

How the data were processed

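Total RNA of 9 HT-29 cultures was hybridised to U133 Plus 2.0 arrays, 1 per culture. The authors deposited log2 signals for 54675 probe sets. Their processing notes name RMA and affy 1.14.2, but the deposited log2 values have the form of MAS 5.0 signals, with the same trimmed mean on each array, and were used as deposited. No genome build enters them. Depth does not apply to arrays, whose number limits the precision.

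Probe sets were named through the platform annotation: 41091 had 1 gene, 1801 several and 11721 none. A gene took the probe set with the highest mean over the 9 arrays. The linear models of limma 3.58.1 (R 4.3.3), with moderated variances by eBayes, were fitted to all groups together, with Benjamini-Hochberg adjustment over 11756 genes. The study's rule also asks for more than 2-fold. The fit was run on simulated data with independent noise for each gene and array. Those data held no shift shared by the genes of an array, so they could not test for such shifts. Named with values were members past 2-fold, the 5 largest called rises and falls of each comparison, and members with special roles. Members and gene lists were chosen with earlier results of these data known. Alternatives covered the filter, probe sets, scaling, test, covariate, pairing and arrays left out. Same-numbered arrays deviated together only weakly (correlations from -0.09 to 0.18), so numbers were not taken to pair cultures.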

Additional observations from a re-analysis of the deposited data

How the results depend on the processing

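The main counts at 5 µM vs. 0 µM were 0 members higher, 25 lower and 1 lower by over 2-fold, with 13.3% of all genes lower. The lower count was 13 with no filter, where 4.76% of all genes were lower. It was 15 with only probe sets outside the _x_at and _s_at kinds, where 12.5% were. Not all 75 members have such probe sets, so the counts under this choice are not out of 75. They cannot be set directly against the share of all genes beside them. In the main fit 14 of the 30 members read from such probe sets were lower at each dose. The lower count was 43 with equal array medians (26.8% of all genes lower) and 0 with the β-actin covariate (1.17%). The higher count was 2 with those probe sets, with quantile normalization and with the 2 groups alone, where 20.0%, 17.4% and 24.3% of all genes were higher. The count over 2-fold was 7 with equal medians, where 443 of 11756 genes were lower and 721 higher by over 2-fold. In the main fit 155 genes were lower and 1011 higher by that limit. With the covariate the count was 0, where 108 genes were lower and 555 higher. At 10 µM vs. 0 µM the main counts were 1 higher, 28 lower and 1 over 2-fold, with 13.3% of all genes lower. The lower count was 11 with no filter (4.27% of all genes lower) and 18 with the mean of probe sets (10.2%). It was 12 with those probe sets (11.8%), 7 with the methods' t-test (5.51%) and 0 with the covariate (0.00%). The higher count was 3 with those probe sets (19.6% of all genes higher). It was 0 with equal medians (9.33%), the t-test (7.63%) and the covariate (0.00%). The count over 2-fold was 0 with quantile normalization, where 232 of all genes were lower and 514 higher by over 2-fold. It was 5 with equal medians, where 475 were lower and 458 higher, against 176 and 715 in the main fit. With the covariate it was 0, and no gene of the array was called. At 10 µM vs. 5 µM (3 higher, 2 lower), the higher count was 1 with those probe sets (6.49% of all genes higher) and 0 with the covariate (0.00%). The lower count was 0 with no filter (1.67% of all genes lower), the t-test (2.30%) and the covariate (0.102%). It was 1 with the mean of probe sets (7.15%), those probe sets (7.95%), equal medians (6.11%) and the 2 groups alone (7.71%). Leaving out 1 array at a time gave 0 to 3 higher, 13 to 35 lower and 1 to 2 over 2-fold at 5 µM. It gave 10 to 40 lower at 10 µM and 0 to 7 lower between the doses. Over all genes 15.1% to 22.8% were then higher and 8.21% to 16.1% lower at 5 µM. By over 2-fold, 153 to 170 genes were lower and 944 to 1023 higher at 5 µM. The shares lower were 7.35% to 17.7% at 10 µM and 2.83% to 11.7% between the doses. Equal array medians moved the median of all genes to -0.22 and -0.23 and that of the members to -0.57 and -0.59. Without 10 µM replicates 2 and 3 the members' median at 10 µM was -0.51. Under each of the other scalings and arrays left out, both medians against the vehicle stayed negative. With the replicate block 27 members were lower at 5 µM and 25 at 10 µM, where 12.3% and 12.2% of all genes were lower. Of 26 called results of named members, 3 reversed under some alternative, and 35 values of uncalled ones took the other sign. The reversed were MRPS5, which at 5 µM was 0.21 with those probe sets, MRPS18C, which at 10 µM was 0.17 with the mean of probe sets, and MRPL55, which between the doses was 0.38 with that mean. For MRPS18C and MRPL55 the mean took in probe sets that did not pass the filter. The causes were not tested.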

Other observations

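Probe sets that the annotation gives to a ribosomal protein gene together with another gene were left out of the counts. The probe set of MRPS24 and the read-through gene URGCP-MRPS24 had log2 signals of 11.61 ± 0.16 at 0 µM, 11.36 ± 0.19 at 5 µM and 11.05 ± 0.21 at 10 µM (SD, n = 3). That of MRPL53 and CCDC142 had 10.32 ± 0.07, 10.50 ± 0.05 and 10.34 ± 0.10. A probe set of MRPL51 and SPTLC1 had 8.99 ± 0.05, 8.80 ± 0.10 and 8.58 ± 0.42, with 8.12, 8.92 and 8.72 on the 10 µM arrays. No test was run on these values.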
